A study of Mus musculus with 6 samples.

Results

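The genes described here are 37 genes of the unfolded protein response and the amino acid stress response, taken by symbol from arrays of mouse embryonic fibroblasts (MEFs), which are connective tissue cells grown in culture from embryos. For 36 of them the platform annotation gave a probe set that names 1 gene only, and those 36, of 22180 genes measured in this way, are analysed. Pdia4, a disulphide isomerase, has a probe set that also names a microRNA, and it enters no count of signals, only those of the promoter search. The study compared MEFs with a normal Pax7 gene (Pax7+/+, 3 arrays) with MEFs lacking functional Pax7 (Pax7-/-, 3 arrays), both from F1 mice of C57Bl6N and 129Sv, grown in serum and collected at confluence; no other treatment is named, and embryonic ages are not given. Pax7 encodes a transcription factor with a paired box, known from muscle stem cells and the embryonic nervous system. Each genotype has biological replicates numbered 1 to 3. The labels do not tie a number to an embryo, culture or day, so the spread behind the p-values may be technical. With genotype as the only term it is the spread between samples of a genotype. With the replicate number as a block it is the spread of the differences between samples of equal number. Cell numbers and RNA per cell cannot be told apart in such bulk samples.

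The endoplasmic reticulum (ER) folds and checks proteins on their way out of the cell, which is a large task in fibroblasts because they secrete collagens and other matrix proteins. When unfolded protein collects there, the sensors ATF6, IRE1 (gene Ern1) and PERK (gene Eif2ak3) start the unfolded protein response. ATF6 and XBP1, whose RNA IRE1 splices, raise the chaperones and the machinery that sends misfolded protein to the proteasome (ER-associated degradation, ERAD). PERK acts through ATF4, a transcription factor whose translation also rises when amino acids run short, and ATF4 raises genes of amino acid synthesis and uptake together with regulators of cell survival. The members fall into 16 chaperones, co-chaperones and ERAD genes, 5 sensors and transcription factors, and 15 targets of ATF4.

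Promoters of the chaperones and of the ATF4 targets held different motifs. RefSeq promoters (GRCm38.p6, 250 bases before to 50 after a start, read 5′ to 3′ on the gene's strand) were at hand for 34 of the 37 genes; Atf6, Hyou1 and Manf had none. They were searched on both strands for 4 motifs. The ER stress response element (ERSE) is CCAAT, then 9 bases of any kind, then CCACG, and ERSE-II is ATTGG, then 1 base, then CCACG. The other 2 were the unfolded protein response element (UPRE), TGACGTGG, and the C/EBP-ATF element, TGATGNAA, which ATF4 binds with its partners. An ERSE lay in 7 of 15 chaperone and ERAD genes (Hspa5, Hsp90b1, Calr, Canx, Creld2, Dnajc3 and Pdia6), in 0 of 15 ATF4 targets and in 0 of 4 sensors and factors, against 0.137% of 27025 genes in the table. An ERSE-II lay in 2 chaperone and ERAD genes, Dnajb11 and Herpud1 (0.044% of genes), and in no other member. The C/EBP-ATF element lay in 6 of 15 ATF4 targets (Asns, Atf3, Chac1, Nupr1, Slc7a11 and Trib3) and in 1 of 15 chaperone and ERAD genes, Herpud1, and in 0 of 4 sensors and factors, against 4.51% of genes. The UPRE lay in 0 members and in 0.714% of genes. No 2 of the different motifs overlapped in a member. The 4 motifs were chosen as known elements of these responses, so the counts describe the members and are no test of them. A match shows only that the letters are present, and binding was not measured.

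Chaperone promoters with an ERSE in capitals are shown for the general chaperone Hspa5 (chr2:34772000-34772068), the co-chaperone Dnajc3 (chr14:118937802-118937870), the chaperone Hsp90b1 with 2 sites (chr10:86705508-86705681, minus strand) and the folding factor Creld2 (chr15:88819495-88819563). In Creld2 and at the second site of Hsp90b1 the element lies on the opposite strand, so it reads CGTGG first and ends in ATTGG.

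Hspa5: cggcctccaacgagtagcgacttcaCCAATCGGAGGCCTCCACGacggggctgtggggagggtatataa

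Dnajc3: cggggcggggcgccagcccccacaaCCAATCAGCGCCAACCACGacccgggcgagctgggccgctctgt

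Hsp90b1: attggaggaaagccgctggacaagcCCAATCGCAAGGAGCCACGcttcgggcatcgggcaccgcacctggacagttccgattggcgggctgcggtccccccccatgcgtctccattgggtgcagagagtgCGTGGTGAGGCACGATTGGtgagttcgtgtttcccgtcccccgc

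Creld2: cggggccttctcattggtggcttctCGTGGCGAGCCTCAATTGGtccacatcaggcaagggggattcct

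Herpud1, a membrane protein of ERAD, held a C/EBP-ATF element on the opposite strand (TTGCATCA) upstream of its ERSE-II, and both are in capitals in the stretch shown (chr8:94386292-94386412).

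Herpud1: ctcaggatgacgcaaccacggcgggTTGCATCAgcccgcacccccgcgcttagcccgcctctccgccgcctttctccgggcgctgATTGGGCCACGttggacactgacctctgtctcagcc

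ATF4 targets with the C/EBP-ATF element in capitals are Asns (chr6:7693210-7693257, minus strand), Chac1 (chr2:119351024-119351081), Atf3 (chr1:191183411-191183468, minus strand) and Slc7a11 (chr3:50443628-50443704, minus strand), the last with 1 copy on each strand. In Chac1 and Atf3 the element lies on the opposite strand and reads TTGCATCA.

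Asns: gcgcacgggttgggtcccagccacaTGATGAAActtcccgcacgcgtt

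Chac1: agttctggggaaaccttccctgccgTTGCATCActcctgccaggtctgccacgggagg

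Atf3: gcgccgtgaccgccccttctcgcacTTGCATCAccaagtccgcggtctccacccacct

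Slc7a11: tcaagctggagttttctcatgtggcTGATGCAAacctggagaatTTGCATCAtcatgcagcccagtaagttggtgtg

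Values are log2 signals from the authors' RMA normalization (robust multi-array average), and differences are knockout minus wild type. A probe set's level cannot be set against that of another, so only arrays are compared. As no detection calls were at hand, 1390 genes of olfactory and vomeronasal receptors served as silent genes: a gene is called above background on an array where it exceeds their 95th percentile, which was 5.34 to 5.44 on replicates 1 and 2 and 4.63 to 4.65 on replicate 3. The arrays of replicate 3 were unlike the rest: signals over all probe sets correlated at 0.988 between them, at 0.982 to 0.987 among the other 4, and at 0.789 to 0.824 across this divide, and the interquartile range over genes was 2.98 to 3.02 against 1.61 to 1.69. The cell type label reads ESCs (embryonic stem cells), whereas the titles say MEFs; 9 of 10 fibroblast markers were above background on all 6 arrays, against 1 of 10 pluripotency markers (Pou5f1), with 6 of those above it on 0 arrays. Markers of other cells were above it on all arrays for 1 of 6 macrophage, 3 of 5 epithelial, 0 of 6 endothelial, 2 of 6 muscle and 2 of 6 neural genes. Pax7 itself read 6.14, 5.65 and 4.88 in Pax7+/+ and 6.17, 5.95 and 5.05 in Pax7-/-, values that do not check the genotype, since no source used here places the probe set against the deleted part.

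No member passed the test between genotypes. With genotype as the only term, limma called 0 of 36 members and 0 of 22180 genes (0.0%) at a Benjamini-Hochberg adjusted p of 0.05. In that fit 0 members and 15 genes had an unadjusted p under 0.05. The divide between replicate 3 and the other arrays counts as error there, so its 0 calls do not show that the genotypes are equal. With the replicate number as a block, limma called 0 members and 17 genes (0.0766%). At an unadjusted p under 0.05 this fit had 3 members, Dnajb9, Atf3 and Chac1, against 6.73% of all genes, and the smallest adjusted p of a member was 0.488. The genotypes overlapped in all 36 members, where 1.41% of genes had no overlap. Of the members, 2 were higher in the knockout in all 3 pairs (13.8% of genes) and 6 were lower in all 3 (13.8% of genes).

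The fit with the block gives an interval for each member taken singly, and it rests on pairing the arrays by replicate number. The 95% intervals of its differences ran at most up to 0.59 on the log2 scale (1.50-fold, Dnajb9) and down to -0.51 (1.43-fold, Chac1), and those of 34 members lay within 0.5 either way (1.41-fold). The 34 include Slc7a11, Ddit3 and Eif2ak3, which lay below background on all arrays of replicates 1 and 2, where a difference cannot be read. The SEs of this fit were 0.09 to 0.14. Without the block, where the divide between replicate 3 and the other arrays counts as error, SEs were 0.21 (Trib3) to 1.15 (Dnajb9), and the intervals of 11 members lay within 1 log2 unit. These SEs are limma's moderated ones, which borrow from the spread of all genes.

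**Figure D1:**
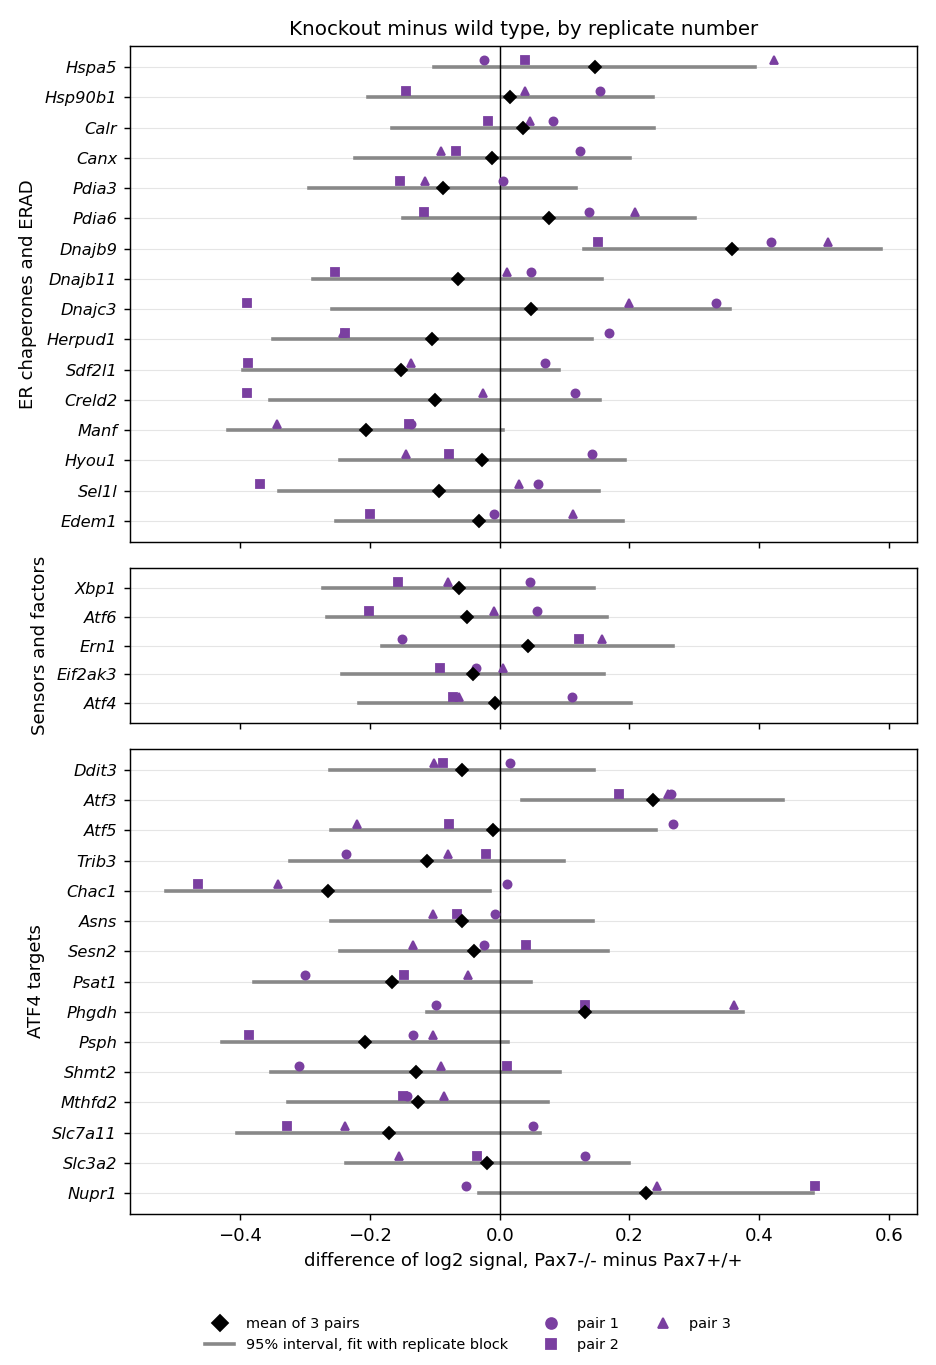
Differences of log2 signal, Pax7-/- minus Pax7+/+, for 36 genes in 3 panels; purple symbols are the 3 pairs of equal replicate number, diamonds their mean and grey bars limma's 95% interval in the fit with the replicate block. Only the bars of Dnajb9, Atf3 and Chac1 miss 0, none of them past the threshold after adjustment; Slc7a11 is drawn although it is not above background in either genotype's mean.

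The ER chaperones and ERAD genes were close to equal between genotypes. Their median difference was -0.03 over 16 genes, against -0.00 over all genes tested, with 6 members above and 10 below 0. The median went from 0.10 in pair 1 to -0.15 in pair 2 and 0.02 in pair 3: 13 of the 16 were higher in the knockout in pair 1, 2 in pair 2 and 9 in pair 3. The direction did not repeat between pairs. The 8404 genes above background on all 6 arrays swung the same way, with pair medians of 0.04, -0.05 and 0.00. Of them, 4975, 3417 and 4225 were higher in the knockout in pairs 1, 2 and 3. Without Pax7-/- replicate 3 the median of the chaperones and ERAD genes was -0.48. Without Pax7+/+ replicate 3 it was 0.36, as each step leaves replicate 3 in 1 genotype alone.

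Hspa5 (BiP), the main Hsp70 chaperone of the ER, which also holds the sensors inactive at rest, read 6.75, 6.96 and 7.55 in Pax7+/+ replicates 1, 2 and 3 and 6.72, 6.99 and 7.97 in Pax7-/-. The first 2 pairs were equal within 0.04 and the third differed by 0.42, for a mean difference of 0.15 (SE 0.11 with the block, 0.40 without). Hsp90b1 (GRP94), the Hsp90 of the ER, differed by 0.15, -0.14 and 0.04 in the 3 pairs, and Hyou1, an Hsp110-like partner of BiP, by 0.14, -0.08 and -0.14. Neither direction held across the pairs. Calr and Canx, the lectin chaperones that hold newly made glycoproteins, had mean differences of 0.04 and -0.01 (SE 0.09 each with the block). The disulphide isomerases Pdia3, which works with them on glycoproteins, and Pdia6 were at -0.09 and 0.08. The probe set of Pdia4 shared with a microRNA had differences of 0.11, 0.01 and -0.18.

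Among the co-chaperones that hand proteins to BiP, Dnajb9 (ERdj4) had the widest difference of the members. It read 5.03, 5.72 and 8.12 in Pax7+/+ and 5.45, 5.87 and 8.63 in Pax7-/-, higher in the knockout in each pair by 0.42, 0.15 and 0.51. The mean difference was 0.36 (1.28-fold; limma SE 0.10 with the block, adjusted p = 0.488; SE 1.15 without, adjusted p = 1.00). Wild type replicate 1 lay below background, and the genotypes overlapped, with replicate 3 far above the other arrays in both. With no block the difference turned to -0.27 without Pax7+/+ replicate 1 and to -0.63 without Pax7-/- replicate 3, while with the block it stayed between 0.28 and 0.46 on leaving out a replicate number. Dnajb11 (ERdj3) and Dnajc3 (p58IPK), which also curbs PERK, were at -0.06 and 0.05; the pairs of Dnajc3 were 0.33, -0.39 and 0.20, the widest scatter of the group. Sdf2l1, a partner of Dnajb11, was at -0.15 and Creld2 at -0.10, each with its lowest value in pair 2 (-0.39 for both).

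Manf, a secreted protein that binds BiP, was lower in the knockout in all 3 pairs. Its signal was 5.46, 5.60 and 6.54 in Pax7+/+ and 5.32, 5.46 and 6.20 in Pax7-/-. The mean difference was -0.21 (limma SE 0.09 and adjusted p = 0.750 with the block, SE 0.39 without). Knockout replicate 1 lay below background. The ERAD genes Herpud1, Sel1l, the scaffold of the Hrd1 ubiquitin ligase, and Edem1, which recognises mannose-trimmed glycoproteins, were at -0.10, -0.09 and -0.03, with mixed signs in their pairs. A second probe set of Edem1 lay at 4.09 to 4.61, below background on all 6 arrays.

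The sensors and factors had differences from -0.06 to 0.04, with a median of -0.04 over 5 genes (-0.38 without Pax7-/- replicate 3 and 0.27 without Pax7+/+ replicate 3). Xbp1 read 7.85, 8.10 and 8.96 in Pax7+/+ and 7.90, 7.94 and 8.88 in Pax7-/-. Atf4 read 6.12, 6.36 and 7.03 against 6.23, 6.28 and 6.97, a mean of -0.01 with a 95% interval of -0.22 to 0.20 in the fit with the block. The arrays measure RNA, whereas XBP1 is regulated by splicing and ATF4 by translation, neither of which these values record. Atf6 was at -0.05 and Ern1 at 0.04. Eif2ak3 lay below background on all 4 arrays of replicates 1 and 2, so its comparison rests on replicate 3, where it read 6.29 in Pax7+/+ and 6.30 in Pax7-/-.

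**Figure D2:**
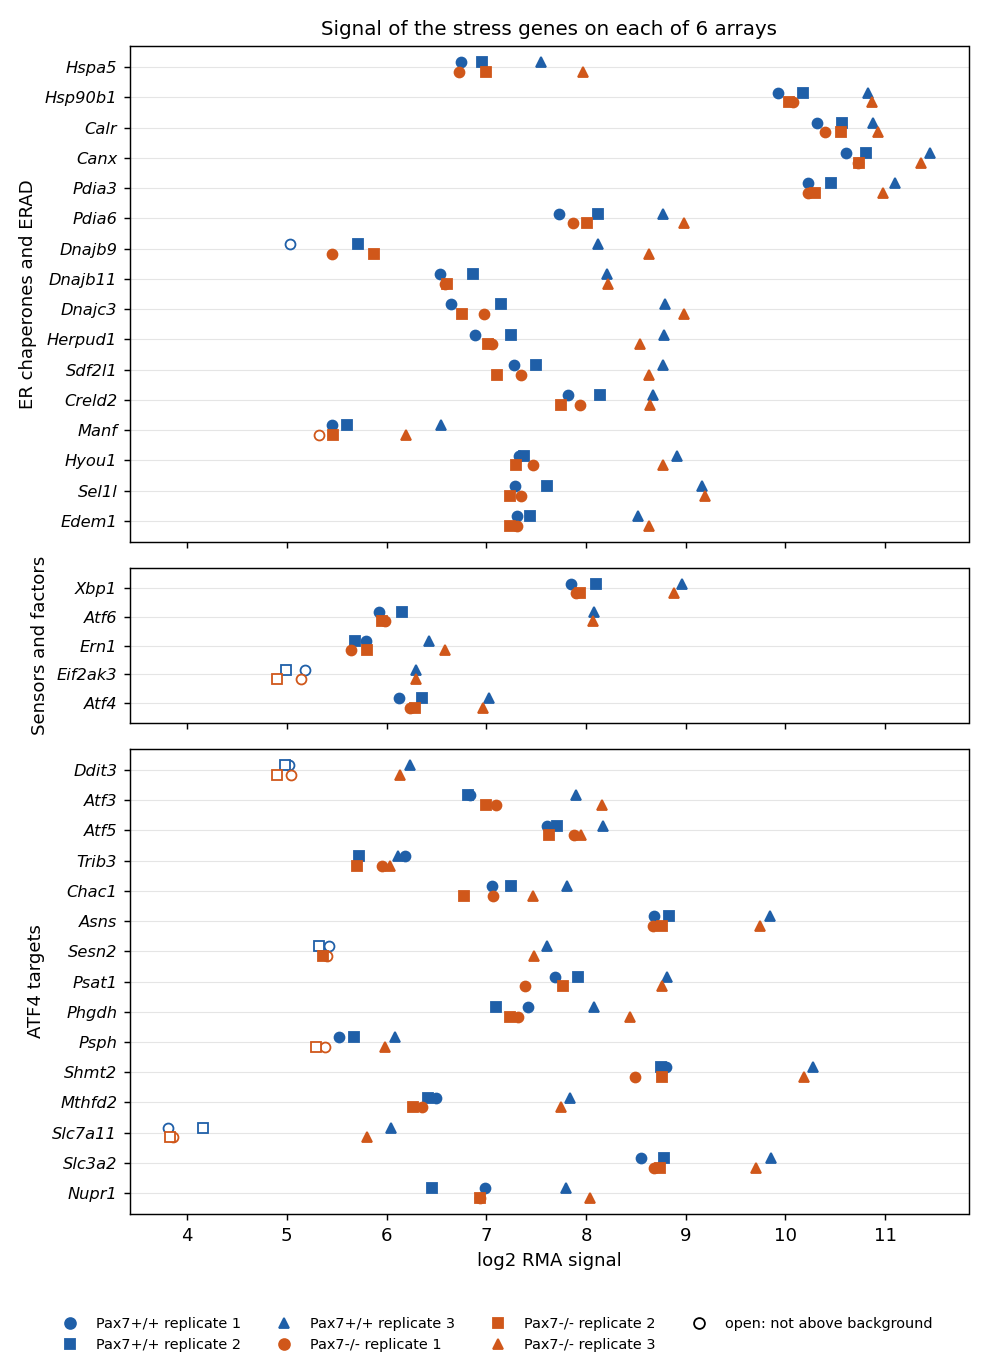
Log2 RMA signal of each of the 36 genes on the 6 arrays, with Pax7+/+ in blue, Pax7-/- in orange, a symbol for each replicate number, and open symbols where the gene is not above background. The colours overlap in every gene, while the triangles of replicate 3 lie to the right of the other symbols of the same colour in both genotypes in all genes but Trib3.

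The ATF4 targets lay slightly lower, with a median difference of -0.06 over 15 genes and pair medians of -0.02, -0.07 and -0.10. Of the 15, 12 lay below 0 (11 of 14 without Slc7a11, whose mean was not above background in either genotype). Ddit3, below background on replicates 1 and 2, remains in these counts and medians. Over all 22180 genes, 11228 lay below 0. Without Pax7-/- replicate 3 the median of the targets was -0.42 and without Pax7+/+ replicate 3 it was 0.35. Of the targets, 5 were lower in the knockout in all 3 pairs (Trib3, Asns, Psat1, Psph and Mthfd2) and 1 was higher (Atf3). Of all genes, 13.8% were lower in all 3 pairs and 13.8% higher. None passed the test, and whether ATF4 targets differ from chaperones was not tested. In pairs 1, 2 and 3 the number of ATF4 targets above 0 was 6, 5 and 3, and that of all 22180 genes was 11884, 10180 and 11168.

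The regulators among the targets did not move one way. Atf3, a stress-induced transcription factor, read 6.83, 6.81 and 7.90 in Pax7+/+ and 7.10, 6.997 and 8.16 in Pax7-/-. It was higher by 0.26, 0.18 and 0.26 (mean 0.24, 1.18-fold, with limma SE 0.09 and adjusted p = 0.679 with the block, SE 0.45 without). Chac1, which degrades glutathione, read 7.06, 7.24 and 7.81 against 7.07, 6.78 and 7.47. It was near equal in pair 1 and different by -0.47 and -0.34 in the others (mean -0.27, with limma SE 0.11 and adjusted p = 0.716 with the block, SE 0.29 without). These 2 regulators lay on opposite sides of 0. Nupr1, a small chromatin-associated stress protein, was at 0.23, with pairs of -0.05, 0.49 and 0.24. Trib3, a pseudokinase that binds ATF4, was at -0.11, lower in each pair and by 0.24 in pair 1. Atf5, a relative of ATF4, was at -0.01, with pairs of 0.27, -0.08 and -0.22. Ddit3 (CHOP), a factor linked to cell death under lasting stress, lay below background on replicates 1 and 2 in both genotypes and read 6.24 and 6.14 on replicate 3. Sesn2, an amino acid sensor upstream of mTORC1, was above background on 3 arrays only, at 7.61 in Pax7+/+ replicate 3, 7.48 in Pax7-/- replicate 3 and 5.36 in Pax7-/- replicate 2.

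Serine made from glucose gives a carbon unit that cells use for nucleotide synthesis. Of its enzymes, Phgdh, which opens the pathway, was at 0.13 (pairs of -0.10, 0.13 and 0.36), on the other side of 0 from the next 2 steps. Psat1 read 7.69, 7.92 and 8.81 in Pax7+/+ and 7.39, 7.77 and 8.77 in Pax7-/- (mean -0.17, SE 0.09 with the block and 0.47 without). Psph read 5.52, 5.68 and 6.08 against 5.38, 5.29 and 5.98, with knockout replicates 1 and 2 below background. Its mean difference was -0.21 (limma SE 0.10 and adjusted p = 0.761 with the block, SE 0.27 without). Both were lower in the knockout in all 3 pairs. Shmt2 and Mthfd2, mitochondrial enzymes of the folate pathway that carries this unit, were at -0.13 each, Mthfd2 with similar pairs of -0.14, -0.15 and -0.09. Asns, which makes asparagine, was at -0.06, with -0.01, -0.07 and -0.10 in the pairs. Over these enzymes and the transporter Slc3a2, 7 genes in all, the median was -0.13 and 6 lay below 0. Of all 22180 genes, 11228 lay below 0. With no block and without Pax7+/+ replicate 3, all of the 7 but Psph (-0.05) lay above 0. Without Pax7-/- replicate 3 all of the 7 lay below 0. Whether these genes differ as a set was not tested.

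The transporters Slc3a2 and Slc7a11 form the cystine carrier that supplies glutathione synthesis. Slc3a2 was at -0.02, with pairs of 0.13, -0.03 and -0.15. Slc7a11 read 3.81, 4.16 and 6.04 in Pax7+/+ and 3.86, 3.83 and 5.81 in Pax7-/-, above background on the replicate 3 arrays alone, so no difference is given for it. Its other probe set was below background on all 6 arrays.

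**Figure D3:**
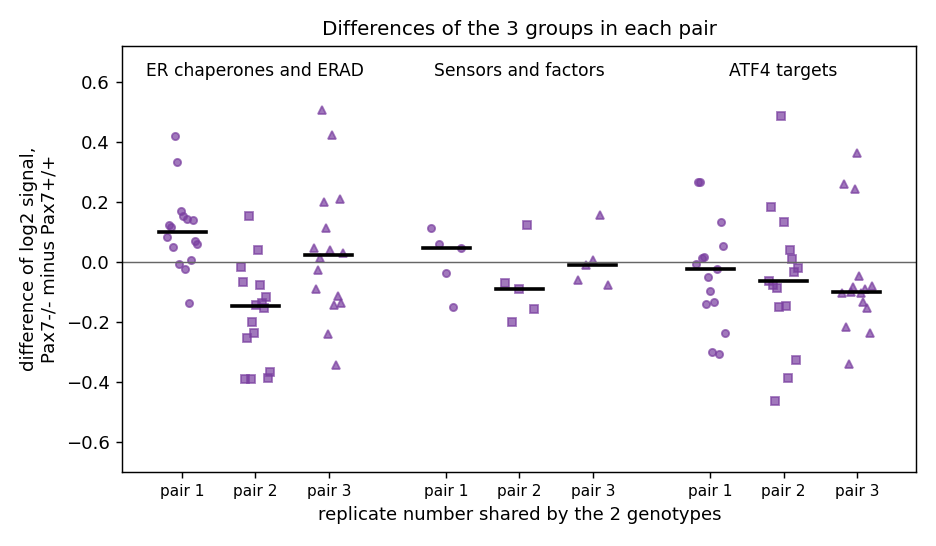
Differences of log2 signal, Pax7-/- minus Pax7+/+, of each gene in the 3 groups, drawn apart for each pair of equal replicate number; a point is a gene and a black bar the group's median. The chaperone medians are 0.10, -0.15 and 0.02, while those of the ATF4 targets are -0.02, -0.07 and -0.10.

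Of 6 lists of other genes in these pathways, limma called 0 genes in either fit. The lists were chosen with earlier results of these data known and were read from the same arrays as the members, so they are no independent repeat. Their counts over the 3 pairs rest on the shared replicate numbers. At an unadjusted p under 0.05 in the fit with the block there were 5 of 14 amino acid genes, 3 of 33 ER folding genes, 1 of 13 genes of the integrated stress response and 0 in the other lists, beside 6.73% of all genes. Amino acid enzymes and transporters outside the members had a median of -0.14 over 14 measured genes. Of these, 7 were lower and 0 higher in all 3 pairs, against 13.8% of all genes in each direction. The 2 with the smallest p were Slc7a5, the large neutral amino acid transporter that pairs with Slc3a2, and Aldh1l2, a mitochondrial folate enzyme. Slc7a5 read 9.20, 9.47 and 10.38 in Pax7+/+ and 8.74, 8.97 and 10.15 in Pax7-/-. Its mean difference was -0.40 (limma SE 0.10 and adjusted p = 0.362 with the block, SE 0.49 without). Aldh1l2 was at -0.35 (limma SE 0.09 and adjusted p = 0.432 with the block, SE 0.67 without). Cytosolic tRNA synthetases, many of them ATF4 targets, had a median of -0.09 over 13 genes, with Mars1 at -0.23 and Cars at -0.17. In all pairs 4 of them were lower and 0 higher, beside 13.8% of all genes in each direction. Other genes of the integrated stress response had a median of -0.09 over 13, with Jdp2 at -0.27 and Ddit4 at 0.20, the latter above background on 3 arrays.

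Further ER folding and ERAD genes had a median of 0.00 over 33, with 3 higher and 7 lower in all 3 pairs (13.8% of all genes each way). Ssr1, a subunit of the translocon-associated complex, was at 0.29 (pairs of 0.49, 0.14 and 0.24) and Wfs1, an ER membrane protein, at 0.22. The 7 other sensors and their proteases had a median of 0.02, with Atf6b at -0.18 and Creb3 at -0.15. Cytosolic and mitochondrial heat shock genes, which answer to another factor, HSF1, had a median of 0.02 over 9, with Hspb1 at 0.21 and Hspe1 at -0.12.

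The replicate number separated the members far more than the genotype. In 35 of 36 genes replicate 3 was the highest of the 3 arrays in both genotypes, which held for 40.9% of all genes and for 67.6% of the 8404 genes above background on all 6 arrays; of the 29 members above background throughout, it held for 28. The exception was Trib3, where Pax7+/+ replicate 1 read 6.19 and replicate 3 6.12. Replicate 3 exceeded the mean of replicates 1 and 2 by a median of 1.10 for chaperones and ERAD genes, 0.98 for sensors and factors and 1.09 for ATF4 targets. Over the 29 members above background throughout the median was 1.06, against 0.82 for all genes above background on the 6 arrays. Individual values, as means of both genotypes, ran from 0.18 (Trib3), 0.36 (Atf5) and 0.44 (Calr) to 2.01 (Dnajc3), 2.07 (Atf6) and 2.86 (Dnajb9) among genes above background on at least 5 arrays. The values in each genotype can be set side by side: Dnajb9 was higher by 2.75 in Pax7+/+ and 2.97 in Pax7-/-, and Dnajc3 by 1.89 and 2.12. These are descriptions with no test, and what sets replicate 3 apart is not given in the labels.

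The size of the shift depended on the scaling. Centring each array on its median, which adds the same amount to every gene, raised the group medians to 1.38 for chaperones and ERAD genes, 1.26 for sensors and factors and 1.37 for ATF4 targets. Quantile normalization, which brings the arrays to the same distribution although the spread was wider in replicate 3, lowered them. The medians were then 0.27 for chaperones and ERAD genes, 0.27 for sensors and factors and 0.04 for ATF4 targets (-0.05 over the 14 without Slc7a11). These groups include members at background on replicates 1 and 2. Over the 29 members above background throughout the median was 0.04, against -0.09 for all genes above background on all arrays. Replicate 3 was then the highest array in both genotypes for 11 of the 29 members above background throughout, against 36.0% of such genes. Of the members above background on at least 5 arrays, Dnajb9 (1.97), Atf6 (1.01) and Dnajc3 (0.72) had the highest values. Sesn2 (1.50) was above background on 1 of the 4 arrays of replicates 1 and 2, and Slc7a11, Ddit3 and Eif2ak3 on 0 of them, so their shifts are measured from background. Below 0 after this step were 14 members, the lowest of them Atf5 (-0.90), Chac1 (-0.58), Creld2 (-0.55), Pdia6 (-0.32), Phgdh (-0.31), Hspa5 (-0.29) and Xbp1 (-0.29). In those 14 the direction on replicate 3 depends on the scaling, and they include chaperones, factors and ATF4 targets.

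**Figure D4:**
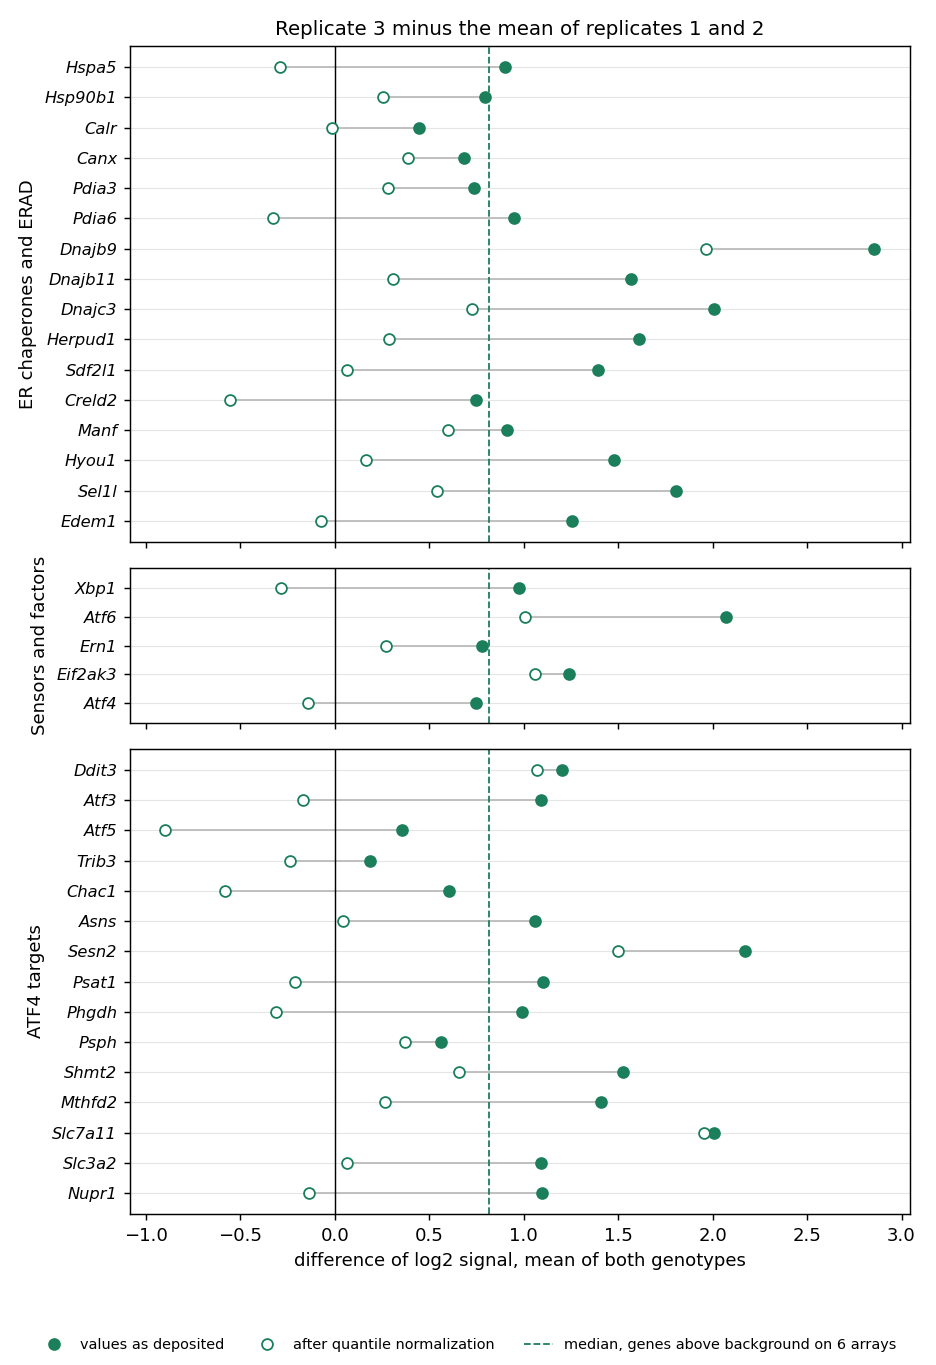
Replicate 3 minus the mean of replicates 1 and 2 in log2 signal, averaged over both genotypes, for each gene; filled points are the deposited values, open points the values after quantile normalization, and the dashed line is the median, 0.82, of genes above background on all 6 arrays. Filled points lie right of 0 in all 36 genes, while open points run from -0.90 (Atf5) to 1.97 (Dnajb9); the points of Slc7a11, Ddit3 and Eif2ak3 start from background.

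Grouped by promoter element, the differences between genotypes are given without a test. The 9 with an ERSE or ERSE-II had a median of 0.02, and the 5 measured chaperones and ERAD genes whose promoters were searched and held neither -0.09. For the ATF4 targets the medians were -0.06 in the 5 with a C/EBP-ATF element and above background, leaving out Slc7a11, and -0.06 in the 9 without. Hspa5 and Dnajc3, whose ERSEs are shown above, were at 0.15 and 0.05, and Herpud1, which holds both kinds of element, was at -0.10. Chac1 and Atf3, which both hold TTGCATCA, were at -0.27 and 0.24, and Asns, with TGATGAAA, at -0.06.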

How the data were processed

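RNA of 6 MEF samples was measured on Affymetrix arrays, 3 per genotype. Per the submitters' processing notes the authors used Partek and RMA. The deposited file holds their log2 values, 1 per probe set and array, with the log base read from the range; software versions and the build: not given in the sources used here. Of 41345 probe sets, 23521 name 1 gene, 1814 several, and 16010 are unnamed in the annotation used. A gene with several probe sets was represented by the one with the highest overall mean (22180 genes). Gene positions are not printed, as no build is named for the array. The number of arrays limits the precision.

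Knockout was compared with wild type in limma (3.58.1, R 4.3.3; lmFit, eBayes, two-sided) over all 22180 genes, with Benjamini-Hochberg adjustment at 0.05, genotype as the only term, and the replicate number as a block beside it. Equal numbers deviated together from their genotype's mean (correlations of 0.92, 0.895 and 0.973 over genes for replicates 1, 2 and 3, all over the bound of 0.1), so the numbers were taken to pair the arrays. This is read from the values and rests largely on replicate 3. The genotype means include replicate 3, so the deviations of replicates 1 and 2 both carry its shift. The correlations therefore cannot show that replicates 1 and 2 are rightly matched between genotypes, and counts over the 3 pairs rest on the shared numbers. The code was tested on simulated data. The 3 groups have no test: counts and medians stand beside those of all genes. The members and lists were chosen with earlier results of these data known. All 36 measured members are named, and of each further list up to 4 called genes; as none was called, the 2 genes of smallest p in the fit with the block are given. Promoters are RefSeq's. Alternatives were other normalizations, filters, probe set rules and variance models, and leaving out arrays.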

Additional observations from a re-analysis of the deposited data

How the results depend on the processing

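The precision is limited by 3 arrays per genotype. Members past the threshold numbered 0 under every setting run, with or without the replicate block. Over all genes the count was 0 with genotype alone and 17 with the replicate block, 19 with replicate 3 against replicates 1 and 2 as a batch block, and, leaving out replicates 1, 2 and 3 of both genotypes with the replicate block, 98, 2 and 4; leaving out single arrays it stayed at 0. Settings added with the data seen gave 15 genes with quantile normalization and the replicate block, 42 with the background filter and the block, 54 with a prior variance by mean level and the block, and 1 (973 at an unadjusted p under 0.05) in replicates 1 and 2 alone. Neither the blocks nor the variance by mean level can change a genotype difference in this balanced design, so the group medians kept their values. Median centring moved every difference by the same amount. Under quantile normalization, the background filter and mean probe sets the group medians moved by less than the SD of their pair medians. With 1 array fewer, replicate 3 weighs unequally in the genotypes, and the medians moved with it: for chaperones and ERAD genes they ran from -0.48 without Pax7-/- replicate 3 to 0.36 without Pax7+/+ replicate 3, for ATF4 targets from -0.42 to 0.35 and for sensors and factors from -0.38 to 0.27 without the same arrays, and all were also above 0 without Pax7-/- replicate 1 or 2. With the replicate block and without replicate 2, the chaperone median was 0.05 and that of the sensors and factors 0.00. Among single members, none of them called, 2 changed sign under quantile normalization, and 2, 8 and 8 did without replicates 1, 2 and 3 with the block. Leaving out 1 array with no block, 7, 5 and 23 of 36 did without Pax7+/+ replicates 1, 2 and 3, and 20, 21 and 10 without those of Pax7-/-. The smallest adjusted p of a member under limma over all settings was 0.276, without replicate 1 and with the block.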
